A study of Mus musculus with 15 samples.

Results

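The genes described here are the expressed lincRNA genes of mouse epiblast-like cells (EpiLCs) of the line CRAFR26: 79 of the 52636 gene identifiers in the deposited count table. They were chosen by 2 conditions, the GENCODE M21 class lincRNA (long intergenic noncoding RNA) and a mean level of at least 2 CPM (counts scaled to library size, with TMM factors) over all 15 libraries. The table held 5009 lincRNA rows, of which 2157 had a count and 81 reached that level. The rule left out Halr1, Mir124a-1hg and the ribosomal RNA-like Gm26917. Mir124a-1hg, at 1.32 CPM, was below the level in any case. The last genes inside were Gm26816 at 2.02 CPM and D230017M19Rik at 2.01 CPM, and the first outside were Gm26836 at 1.98 CPM and Gm26563 at 1.97 CPM. Because mean level selected the genes, their being expressed is not a result, and 68 of the 79 held a mean of at least 2 CPM in each of the 4 groups.

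CRAFR26 carries a c-RAF kinase construct that 4-hydroxytamoxifen (4OHT) switches on, and c-RAF drives the kinase ERK through MEK. Cells were kept for 48 h in N2B27 medium with bFGF at 12 ng/ml, Activin A at 20 ng/ml and XAV939 at 1 µM, and every group received the FGF receptor inhibitor PD17 (PD173074, 250 nM) for 2 h before sampling or induction. The 0h group (n = 3) was sampled then, the 2h group (n = 4) after 2 h and the 4h group (n = 4) after 4 h of 250 nM 4OHT, and the rev group (n = 4) after 4 h of 4OHT and a further 2 h with a MEK inhibitor. Libraries came from 2 clones, 4 and 8, with 2 libraries of each clone in each group except 0h, which held 1 of clone 4; the authors discarded 1 sample of 0h in quality control. No group received the MEK inhibitor without 4OHT or 4OHT without the FGF receptor inhibitor. No group was kept for the further 2 h without the MEK inhibitor, or for 2 h or 4 h after the pretreatment without 4OHT. Elapsed time therefore cannot be told apart from 4OHT in 2h and 4h against 0h, or from the MEK inhibitor in rev vs 4h. The design asks which transcripts follow ERK and which return once it is blocked. P-values measure the spread between these libraries, which are repeat samples of 2 clones.

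Long intergenic noncoding RNAs are transcripts made by RNA polymerase II outside protein-coding genes. Some build nuclear structures, such as Neat1, the scaffold of paraspeckles, or act on a chromosome, such as Xist, which coats the X chromosome that it silences. Others are carriers of small RNAs: host transcripts of snoRNAs and microRNAs are spliced or cut, and the small RNA is released from them. In early mouse embryonic cells a further set, among them Lncenc1 and the Platr genes (pluripotency-associated transcripts), is known for its link to the pluripotent state. Many are unstable nuclear RNAs, which the exosome removes.

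Libraries held 1552022 to 13004556 counts. The 4h libraries were the shallowest, with 1552022 to 6658950 counts against 8667880 to 13004556 in all others. Mitochondrial genes took 7.21% to 12.4% of the counts at 4h and 2.67% to 6.98% elsewhere, and the 9 most abundant genes, among them Gm26917 and mitochondrial ribosomal RNAs, took 48.9% to 77.9%. The lincRNA genes together held 0.174% to 0.412% of the counts. All 79 passed the filter on low counts and none was at 0 in any library; all 79 had more than 3 counts in every library except 4h clone 4 number 1 (77 genes) and 4h clone 8 number 2 (74 genes). The ERK targets Spry4, Dusp6 and Egr1 were higher at 2h and at 4h than at 0h (adjusted p under 0.05 in edgeR for 3 of 3). At that threshold all 3 were lower at 4h than at 2h (median log2 fold change -1.49). In rev 2 of the 3 were lower than at 4h (median -1.44), and all 3 were still higher than at 0h (median 3.84). Summed markers of EpiLCs (8 genes, such as Pou5f1, Fgf5 and Otx2) were 1525 to 1746 CPM at 0h, 1435 to 1660 CPM at 2h, 950 to 1097 CPM at 4h and 1265 to 1435 CPM in rev, lowest at 4h. Those of neural progenitors (4 genes) were 45.0 to 79.2 CPM, and those of fibroblasts, trophoblast, primitive endoderm and mesendoderm at or below 17.1 CPM in every library.

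The sequences at the starts of the genes are shown for the members on which the time course turns. RefSeq promoter windows (GRCm38.p6, 250 bases before the start to 50 after it) matched 44 of the 79 genes by symbol, with 52 windows. Those printed have a RefSeq start within 47 bases of the GENCODE start: Lncenc1 and Meg3, which rose at 4h, and 2010320M18Rik and Ftx, which fell. They lie at chr13:97434720-97435019 (plus strand, Lncenc1), chr12:109540746-109541045 (plus strand, Meg3), chr8:70776612-70776911 (plus strand, 2010320M18Rik) and chrX:103623705-103624004 (minus strand, Ftx). Capitals mark matches to the motifs searched.
Lncenc1: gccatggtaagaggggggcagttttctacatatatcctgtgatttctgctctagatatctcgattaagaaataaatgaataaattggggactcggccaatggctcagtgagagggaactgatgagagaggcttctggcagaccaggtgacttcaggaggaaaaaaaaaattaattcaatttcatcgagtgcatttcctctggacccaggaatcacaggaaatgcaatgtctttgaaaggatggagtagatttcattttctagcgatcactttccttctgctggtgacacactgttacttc
Meg3: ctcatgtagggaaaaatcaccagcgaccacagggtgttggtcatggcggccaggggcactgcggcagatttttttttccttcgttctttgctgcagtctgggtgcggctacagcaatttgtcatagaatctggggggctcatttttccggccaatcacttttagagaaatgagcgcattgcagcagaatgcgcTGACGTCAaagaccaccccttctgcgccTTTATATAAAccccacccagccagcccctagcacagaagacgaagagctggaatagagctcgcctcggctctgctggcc
2010320M18Rik: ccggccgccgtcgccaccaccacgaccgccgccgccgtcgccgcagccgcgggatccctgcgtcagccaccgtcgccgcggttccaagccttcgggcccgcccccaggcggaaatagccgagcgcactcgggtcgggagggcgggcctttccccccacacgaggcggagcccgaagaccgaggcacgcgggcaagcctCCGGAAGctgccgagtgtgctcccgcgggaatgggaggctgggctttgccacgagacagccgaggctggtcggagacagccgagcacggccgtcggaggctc
Ftx: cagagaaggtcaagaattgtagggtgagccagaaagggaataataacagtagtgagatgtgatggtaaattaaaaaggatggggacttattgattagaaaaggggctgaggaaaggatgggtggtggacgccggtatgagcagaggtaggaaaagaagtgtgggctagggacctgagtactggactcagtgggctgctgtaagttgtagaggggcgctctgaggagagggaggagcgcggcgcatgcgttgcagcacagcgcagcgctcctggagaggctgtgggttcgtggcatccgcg
Both strands were searched for 7 motifs, none of which contains another. The AP-1 motif was searched as TGANTCA. That of CRE, bound by CREB proteins, was TGACGTCA. The ETS motif was written CCGGAAG. The letters of the EGR motif were GCGTGGG. For the E-box they were CACGTG. The TATA box was taken as TATAAA. The SRF CArG box completed the set. In the Meg3 window the CRE motif began 57 bases before the start and 2 overlapping matches of the TATA box began 29 and 25 bases before it. The 2010320M18Rik window held the ETS motif 52 bases before the start, and the windows of Lncenc1 and Ftx held none of the 7. Over the 52 windows, the ETS motif was present in 17.3% against 8.86% of all 32851 windows in the table, AP-1 in 7.69% against 7.81%, CRE in 3.85% against 1.79%, the E-box in 9.62% against 7.15%, the TATA box in 5.77% against 13.6%, the CArG box in 5.77% against 1.63% and EGR in 0 windows against 5.04%. These are matches of letters and were not tested.

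**Figure D1:**
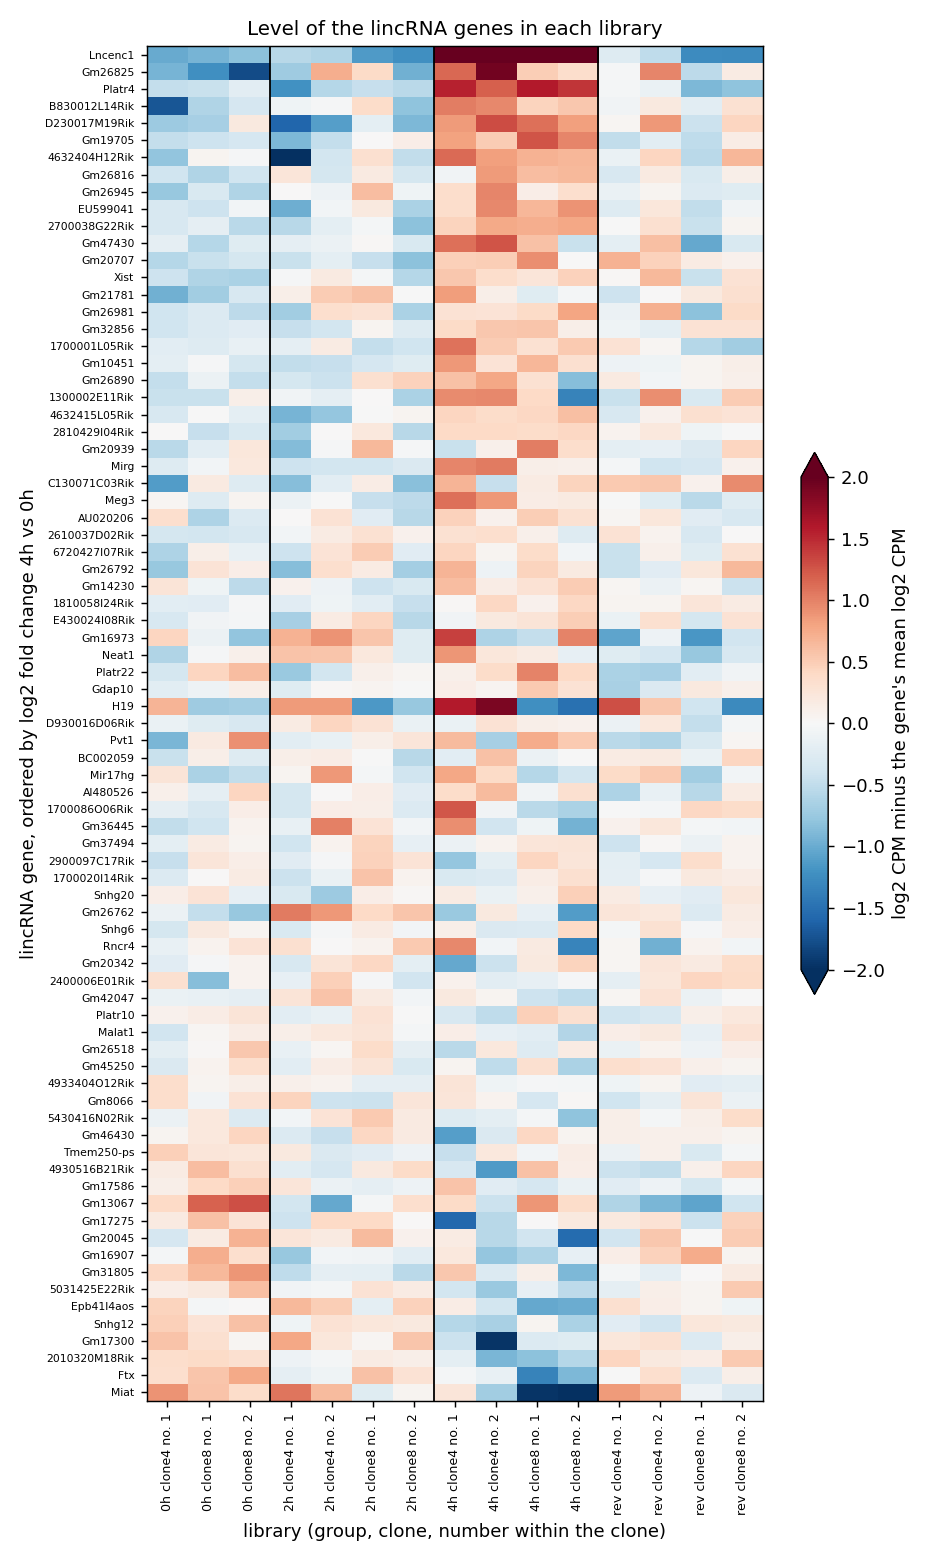
Level of the 79 lincRNA genes (rows, ordered by the log2 fold change in 4h vs 0h) in the 15 libraries (columns, by group, clone and number), coloured by log2 CPM minus the gene's own mean log2 CPM. The 4 libraries of 4h stand apart from the other 11, red in most upper rows and blue in the lowest rows, and H19 differs by clone.

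Across the 79 genes the 4h libraries stood apart. On the first principal component of the centred log2 CPM, which held 45.6% of the variance, the 4h libraries scored 3.73 to 4.53 and the other 11 libraries -2.49 to 0.09. The second component, with 18.6%, separated the clones: all 7 clone 4 libraries were above 0 and all 8 clone 8 libraries below. The summed level without Malat1 was 818 to 876 CPM at 0h, 770 to 977 CPM at 2h, 1011 to 1260 CPM at 4h and 774 to 917 CPM in rev, so the 4h libraries did not overlap with any other group. The 4h mean was 1.34 times the 0h mean. It was 0.839 times when libraries were scaled by their total count, which includes the ribosomal RNA-like genes, so the direction depends on the scaling. Genes at a high level weigh most in this sum, among them Meg3 and, at 4h, Lncenc1. The median level of the 79 genes was 4.32 to 5.28 CPM at 0h and 4.82 to 6.28 CPM at 2h. At 4h it was 5.92 to 6.72 CPM and in rev 4.93 to 6.19 CPM, so by the median 4h overlapped with 2h and rev.

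**Figure D2:**
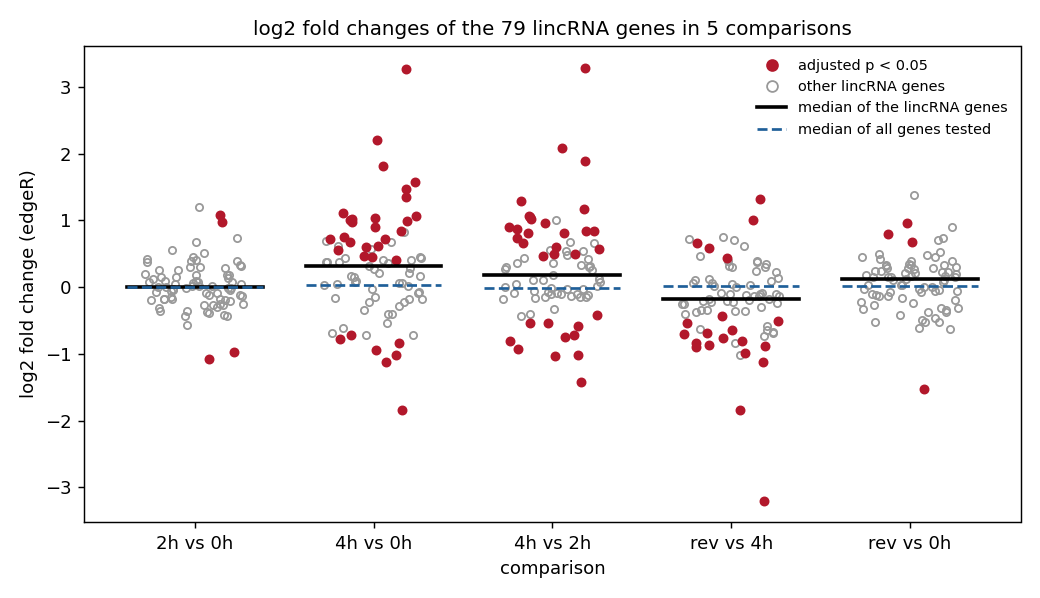
log2 fold changes (y axis) of the 79 lincRNA genes in 5 comparisons (x axis); filled points passed an adjusted p of 0.05, the black line is the median of the lincRNA genes and the dashed line that of all 13451 genes tested. The black line lies above the dashed one in 4h vs 0h (0.32 against 0.03) and below it in rev vs 4h (-0.18 against 0.02).

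Most of the change came between 2 h and 4 h. After 2 h of 4OHT, 2 of 79 lincRNA genes were higher and 2 lower than at 0h (edgeR quasi-likelihood test, Benjamini-Hochberg adjusted p under 0.05), where 3.98% of all genes tested were higher and 2.46% lower. At 4h, 25 were higher and 7 lower than at 0h, where 20.5% of all genes were higher and 18.9% lower, so higher calls made up 31.6% of the lincRNA genes and lower calls 8.86%. Against 2h, 22 were higher and 11 lower (19.7% and 19.2% of all genes). After the MEK inhibitor, 5 were higher and 16 lower than at 4h (15.1% and 15.6% of all genes), and against 0h 3 were higher and 1 lower (6.49% and 4.66% of all genes). These comparisons share libraries, so they are not independent of one another. Of the 68 genes with a mean of at least 2 CPM in each group, 22 were higher and 6 lower in 4h vs 0h (20.5% and 18.9% of all genes). The 79 genes had a median log2 fold change of 0.01 in 2h vs 0h, 0.32 in 4h vs 0h, 0.19 in 4h vs 2h, -0.18 in rev vs 4h and 0.12 in rev vs 0h, where all genes tested had 0.01, 0.03, -0.01, 0.02 and 0.02. Total count scaling moved the median of all genes by -0.73 in 4h vs 0h, -0.57 in 4h vs 2h and 0.45 in rev vs 4h, and with it the calls became 4 higher and 24 lower, 3 higher and 16 lower, and 12 higher and 2 lower. Relative to that shift the lincRNA median was 0.33, 0.18 and -0.17, against 0.29, 0.20 and -0.19 with TMM. The 4h libraries were also the shallowest and the richest in mitochondrial counts, and the part of either in these counts was not tested. With every library thinned to 1552022 counts, 51 of the 79 genes could be tested. Of these, 14 were called in 4h vs 0h, 16 in 4h vs 2h and 9 in rev vs 4h. The share of all genes called in thinned libraries or with total count scaling is not given, so those calls are not set against other genes.

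Lncenc1, a lincRNA of pluripotent cells, showed the largest rise. Its level was 10.4, 10.96 and 11.9 CPM in the 0h libraries, 14.2, 13.7, 9.51 and 8.89 CPM at 2h, 98.4, 100.7, 123 and 117 CPM at 4h and 17.5, 14.7, 8.74 and 8.61 CPM in rev (clone 4 first in each group). All 4h libraries were above all others, and the rev libraries overlapped with 0h. The log2 fold change was 3.27 ± 0.21 (SE) in 4h vs 0h (edgeR adjusted p = 2.02e-09) and -3.20 ± 0.19 in rev vs 4h (adjusted p = 1.32e-09); in 2h vs 0h it was -0.02 ± 0.19 and did not pass. Lncenc1 lies at chr13:97434970-97497007 on the plus strand, shares no exon position with another annotated gene and has 3301 exonic bases.

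Platr4, at chr3:41484024-41493192 on the minus strand, followed the same course at a lower level. Its libraries held 3.02, 3.08 and 3.63 CPM at 0h, 1.82, 2.83, 3.05 and 2.89 CPM at 2h, 12.2, 9.63, 12.5 and 11.3 CPM at 4h and 4.06, 3.82, 2.26 and 2.39 CPM in rev. Again the 4h libraries lay above all others. The log2 fold change was 1.81 ± 0.25 in 4h vs 0h (edgeR adjusted p = 6.98e-06), 2.09 ± 0.23 in 4h vs 2h (adjusted p = 3.65e-07) and -1.84 ± 0.23 in rev vs 4h (adjusted p = 2.86e-06).

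The other Platr genes did less. Platr22 was higher at 4h than at 2h (0.74 ± 0.24, edgeR adjusted p = 0.0183), a call that was lost without 4h clone 4 number 2 or 4h clone 8 number 1 (adjusted p up to 0.0764), and lower in rev than at 4h (-0.89 ± 0.25, adjusted p = 0.0082). With total count scaling these were 0.11 (adjusted p = 0.848) and -0.41 (adjusted p = 0.473). Platr10, the second most abundant lincRNA per kilobase after Malat1 (27.1 against 277 CPM per kilobase), was called in none of the 5 comparisons of groups, and its log2 fold change in 4h vs 0h was -0.09 ± 0.12. Of the 4 genes on the list of pluripotent cell lincRNAs, 2 were higher and 0 lower in 4h vs 0h, and 0 were higher and 3 lower in rev vs 4h, where 20.5% and 18.9% of all genes tested were higher and lower in the first comparison and 15.1% and 15.6% in the second. Protein-coding markers of naive pluripotency moved at the same time: the sum over 7 of them, such as Zfp42, Esrrb and Klf4, was 20.8 to 29.2 CPM at 0h, 26.0 to 31.1 CPM at 2h, 61.7 to 212 CPM at 4h and 28.4 to 38.9 CPM in rev. None of the 7 was at 0 throughout a group, and 6 were higher and 0 lower in 4h vs 0h (edgeR adjusted p under 0.05). Of the 8 EpiLC markers, whose sum was lowest at 4h, 3 were higher and 5 lower in 4h vs 0h, and 5 higher and 3 lower in rev vs 4h. Of the 4 neural markers, 2 were higher (Sox1 and Pax6) and 1 lower (Nes) in 4h vs 0h, with a median log2 fold change of 2.78, and 3 were higher and 0 lower in rev vs 0h, although the summed level of the 4 overlapped between all groups. The part of these markers in the lincRNA changes was not tested. In bulk RNA a change of level per cell and a change in the number of cells that express a gene cannot be told apart.

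**Figure D3:**
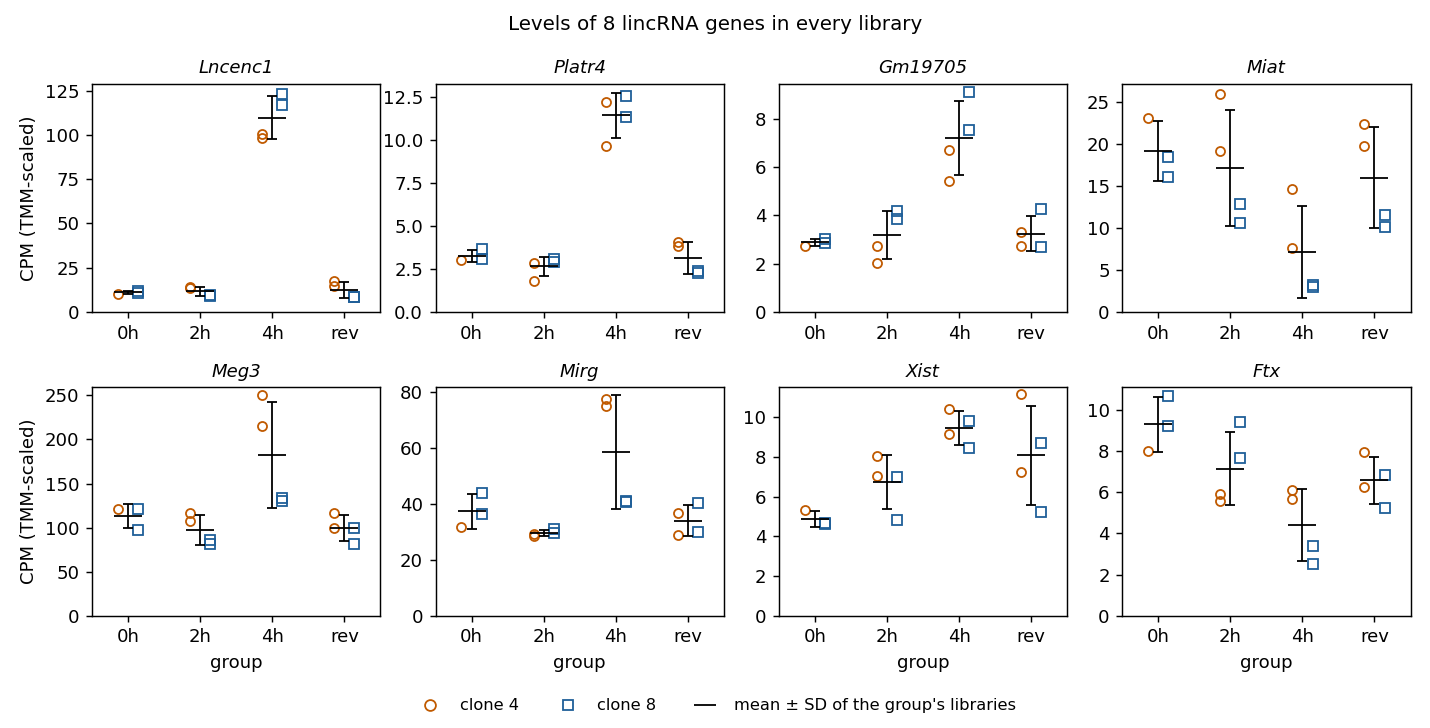
TMM-scaled CPM (y axis, from 0) of 8 lincRNA genes in each library by group (x axis), with circles for clone 4, squares for clone 8, and the mean ± SD of the group's libraries. Lncenc1, Platr4 and Gm19705 are highest at 4h in both clones, Miat and Ftx are lowest there in clone 8, and Mirg at 4h is 75.1 and 77.8 CPM in clone 4 but 41.2 and 40.7 CPM in clone 8.

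Other large rises at 4h were in genes known by identifiers. Gm19705, 5.4 kb upstream of Platr22 on chromosome 1, held 2.75, 2.87 and 3.03 CPM at 0h and 6.72, 5.43, 9.11 and 7.54 CPM at 4h, without overlap, and then 2.73, 3.30, 2.68 and 4.25 CPM in rev. Its log2 fold change was 1.35 ± 0.23 in 4h vs 0h (edgeR adjusted p = 0.000109) and -1.12 ± 0.22 in rev vs 4h (adjusted p = 0.000461). With total count scaling they were 0.59 (adjusted p = 0.174) and -0.67 (adjusted p = 0.147), and neither passed. D230017M19Rik rose from 0h to 4h by 1.47 ± 0.37 (adjusted p = 0.00315) and from 2h by 1.90 ± 0.35 (adjusted p = 0.000215), and its change in rev vs 4h, -0.74 ± 0.33, did not pass (adjusted p = 0.0977). With total count scaling its rise from 0h was 0.71 (adjusted p = 0.165). Its mean over all libraries was 2.01 CPM, just above the level of the rule. The 4h libraries raised that mean, so the choice of genes itself favoured this rise. 4632404H12Rik rose by 1.29 ± 0.37 from 2h (adjusted p = 0.00842); its rise from 0h, 1.12 ± 0.39 (adjusted p = 0.0283), was lost without 0h clone 4 number 1, 0h clone 8 number 2 or either clone 4 library of 4h (adjusted p up to 0.141), and neither passed with total count scaling (0.69 and 0.35, adjusted p = 0.12 and 0.446). Gm26825 had a log2 fold change of 2.21 ± 0.47 in 4h vs 0h (adjusted p = 0.00313), but 92% of its exonic bases also lie in Gm15459 on the opposite strand. How the counting treated strand is not given in the sources used here, so reads of these genes may not be separable.

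The imprinted Dlk1-Dio3 region on chromosome 12 held 4 of the 79 genes, all on the plus strand within chr12:109541001-109749460: Meg3, Gm26945, B830012L14Rik and Mirg. Meg3 is a maternally expressed RNA and Mirg is a host of microRNAs, and 14 RefSeq microRNA genes with 26 mature forms fall within Mirg. Meg3 held 120.9, 97.9 and 121 CPM at 0h, 108, 116, 85.5 and 81.2 CPM at 2h, 250.5, 215, 129.98 and 133 CPM at 4h and 117, 99.5, 81.1 and 99.5 CPM in rev. Every 4h library was above all libraries of the other groups, with the clone 4 libraries well above those of clone 8. The log2 fold change of Meg3 was 0.56 ± 0.13 in 4h vs 0h (edgeR adjusted p = 0.00158), 0.87 ± 0.12 in 4h vs 2h (adjusted p = 5.91e-06) and -0.83 ± 0.12 in rev vs 4h (adjusted p = 1.47e-05). With total count scaling it was -0.09 in 4h vs 0h, 0.37 in 4h vs 2h and -0.465 in rev vs 4h, and none of the 3 passed (adjusted p = 0.802, 0.234 and 0.17). Mirg rose by 0.96 ± 0.19 from 2h to 4h (adjusted p = 0.000886) and changed by -0.76 ± 0.19 in rev vs 4h (adjusted p = 0.0063). Its rise from 0h to 4h, 0.60 ± 0.21 (adjusted p = 0.0327), was lost without 0h clone 4 number 1, 0h clone 8 number 1 or either clone 4 library of 4h (adjusted p up to 0.219), and was -0.07 with total count scaling, under which the changes in 4h vs 2h (0.42, adjusted p = 0.196) and rev vs 4h (-0.36, adjusted p = 0.309) did not pass either. From 0h to 4h B830012L14Rik rose by 1.58 ± 0.31 (adjusted p = 0.000398), and so did Gm26945, named after its values were seen, by 1.04 ± 0.25 (adjusted p = 0.00224).

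Fewer genes fell at 4h, and Miat fell most. Miat is a nuclear RNA at chr5:112213228-112229395 on the minus strand, with 30% of its exonic bases shared with other annotated genes. It held 23.1, 18.4 and 16.1 CPM at 0h, 26.0, 19.2, 10.6 and 12.9 CPM at 2h, 14.7, 7.65, 3.19 and 3.02 CPM at 4h and 22.4, 19.8, 11.6 and 10.2 CPM in rev. All 4h libraries were below all 0h libraries, and in each group the clone 8 libraries were below those of clone 4. The log2 fold change was -1.83 ± 0.23 in 4h vs 0h (edgeR adjusted p = 4.57e-06) and 1.32 ± 0.22 in rev vs 4h (adjusted p = 0.000119). The second was 0.75 in thinned libraries (adjusted p = 0.0619) and 1.275 with no clone term (adjusted p = 0.0666), and passed in neither. 2010320M18Rik held 3.56, 3.68 and 3.51 CPM at 0h, 2.61, 2.74, 3.14 and 3.05 CPM at 2h, 2.44, 1.48, 1.59 and 1.88 CPM at 4h and 3.78, 3.20, 3.10 and 4.05 CPM in rev. Its 4h libraries were below every other library, with -1.01 ± 0.25 in 4h vs 0h (adjusted p = 0.00276) and 1.01 ± 0.24 in rev vs 4h (adjusted p = 0.00287). These 4h levels, down to 1.48 CPM, were near the floor, since 3 counts were 0.683 to 1.83 CPM at 4h. The gene met the level of the rule through the other groups, and it was not among the genes tested in thinned libraries. 5031425E22Rik also fell at 4h and rose in rev, by -0.72 ± 0.17 in 4h vs 0h (adjusted p = 0.00249) and 0.59 ± 0.17 in rev vs 4h (adjusted p = 0.00934), neither of which passed in thinned libraries (-0.39 and 0.69, adjusted p = 0.351 and 0.0773).

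Xist and Ftx, genes of the X inactivation centre, moved in opposite directions at 4h. Xist held 5.34, 4.68 and 4.603 CPM at 0h and 10.4, 9.13, 8.42 and 9.80 CPM at 4h, without overlap, and 7.22, 11.2, 5.22 and 8.72 CPM in rev. Its log2 fold change was 0.90 ± 0.21 in 4h vs 0h (edgeR adjusted p = 0.00196), and the change in rev vs 4h, -0.23 ± 0.19, did not pass (adjusted p = 0.403). With total count scaling the rise from 0h to 4h was 0.16 (adjusted p = 0.707). The call of Xist in 4h vs 2h (0.50 ± 0.19, edgeR adjusted p = 0.0467) was lost without any single library of these groups other than 2h clone 8 number 1 and 4h clone 4 number 2 (adjusted p up to 0.152), and the change was -0.03 with total count scaling. Of 11 other settings, that scaling among them, 10 lost this call, such as the DESeq2 Wald test (adjusted p = 0.0768) and thinned libraries (edgeR adjusted p = 0.526). Against 0h, Xist in rev was higher by 0.68 ± 0.20 (adjusted p = 0.0351), and this did not hold without any single 0h library or without number 2 of either clone in rev (adjusted p up to 0.18). It was also lost in 4 of 11 other settings: total count scaling, thinned libraries, no clone term and a block for the replicate. Ftx, a noncoding gene known as an activator of Xist, lies 77.7 kb from it on the same strand. It held 7.99, 9.22 and 10.7 CPM at 0h and 6.11, 5.68, 2.504 and 3.39 CPM at 4h, without overlap, and fell by 1.12 on the log2 scale (SE 0.26, adjusted p = 0.00194), or by 0.70 in thinned libraries (adjusted p = 0.178). In Xist 13% and in Ftx 10% of the exonic bases are shared with other annotated genes, among them Tsix, antisense to Xist.

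Malat1 was the most abundant of the nuclear RNAs and passed in no comparison of groups. Malat1, an RNA of nuclear speckles with a mean of 1938 CPM, held 1467, 1958 and 2110 CPM at 0h and 2106, 1715, 1649 and 1276 CPM at 4h, with overlap. Its log2 fold change was -0.15 ± 0.17 in 4h vs 0h (edgeR adjusted p = 0.518). Neat1, 22.0 kb from Malat1, held 12.8, 19.1 and 20.8 CPM at 0h, 36.0, 22.7, 21.9 and 17.3 CPM at 4h and 16.4, 15.4, 11.6 and 15.7 CPM in rev. It was lower in rev than at 4h (-0.70 ± 0.20, adjusted p = 0.0127), and the groups did not overlap, but without 4h clone 4 number 1 the change was -0.51 (adjusted p = 0.0519) and with total count scaling -0.33 (adjusted p = 0.395). Gm42047 was lower at 4h than at 2h (-0.41 ± 0.10, adjusted p = 0.00341). The RNAs 1700020I14Rik (Oip5os1) and 2900097C17Rik (Norad, a cytoplasmic RNA that binds Pumilio proteins) were called in none of the 5 comparisons of groups; in 4h vs 0h they gave 0.08 ± 0.12 and 0.09 ± 0.15. Of the 11 genes on the list of nuclear and structural RNAs, 3 were higher and 2 lower in 4h vs 0h (20.5% and 18.9% of all genes tested), and 1 was higher and 3 lower in rev vs 4h (15.1% and 15.6%). The list median was 0.29 in 4h vs 0h against 0.03 for all genes tested.

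The list of small RNA hosts, set by gene name, was too short to set against all genes. Other members that also hold microRNAs, among them Meg3, Ftx, H19 and C130071C03Rik, were not on it. Of the 6 genes on that list, 1 was higher and 2 lower in 4h vs 0h (20.5% and 18.9% of all genes tested). In rev vs 4h 1 was higher and 1 lower (15.1% and 15.6%), and the list median was 0.06 for each comparison. The snoRNA host Snhg12 held 22.7, 19.8 and 24.6 CPM at 0h and 10.996, 10.4, 16.8 and 10.6 CPM at 4h, and fell by 0.84 on the log2 scale (SE 0.16, edgeR adjusted p = 0.000316). Epb41l4aos was lower at 4h than at 0h (-0.77 ± 0.19, adjusted p = 0.00313) and higher by 0.66 ± 0.18 in rev than at 4h (adjusted p = 0.00866). In thinned libraries these changes were 0.09 (adjusted p = 0.87) and 0.06 (adjusted p = 0.92), so the first turned its direction, and with no clone term the second did not pass (adjusted p = 0.0575). Snhg6 (0.05 ± 0.18) and Snhg20 (0.07 ± 0.24) did not pass in 4h vs 0h. Gm17300, 40.7 kb from Snhg12, fell by 0.94 (SE 0.28, adjusted p = 0.0111; 0.0647 without 0h clone 4 number 1 and 0.163 in thinned libraries), and 63% of its exonic bases are shared with genes on the opposite strand, among them Rcc1 and Snhg3.

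After 2 h, 4 genes were called. Gm26762 rose from 3.78, 2.94 and 2.42 CPM at 0h to 8.40, 7.43, 5.41 and 5.999 CPM at 2h, without overlap, and held 2.44, 4.69, 3.64 and 1.88 CPM at 4h. Its log2 fold change was 1.08 ± 0.21 in 2h vs 0h (edgeR adjusted p = 0.00275) and -1.01 ± 0.22 in 4h vs 2h (adjusted p = 0.000886). The first was 0.87 with total count scaling (adjusted p = 0.229) and the second -1.08 in thinned libraries (adjusted p = 0.0804). It overlaps the gene of the glycolytic enzyme Gpi1 on the opposite strand, sharing 14% of its exonic bases, and Gpi1 changed by 0.12 in 2h vs 0h (adjusted p = 0.512). Gm13067 held 3.08, 5.28 and 5.69 CPM at 0h, 1.82, 1.15, 2.27 and 2.95 CPM at 2h, 3.05, 1.73, 4.33 and 3.02 CPM at 4h and 1.54, 1.24, 1.13 and 1.76 CPM in rev. Its log2 fold change was -1.08 ± 0.25 in 2h vs 0h (edgeR adjusted p = 0.0101) and -1.52 ± 0.26 in rev vs 0h (adjusted p = 0.000572), the only fall from 0h that was called in rev. Gm21781 (0.98 ± 0.24, adjusted p = 0.0142) rose and Gm31805 (-0.98 ± 0.25, adjusted p = 0.0177) fell at 2h. Neither Gm13067 nor Gm31805 was among the 68 genes with a mean of at least 2 CPM in each group. Of those 68, 0 were called lower in 2h vs 0h and 0 in rev vs 0h (2.46% and 4.66% of all genes tested). Both genes met the rule through the groups where they were higher, so the choice of genes itself favoured these falls. The call of Gm21781 was lost without 0h clone 4 number 1, 0h clone 8 number 1, 2h clone 4 number 2 or 2h clone 8 number 1 (adjusted p up to 0.159), and that of Gm31805 without any single 0h library or 2h clone 8 number 2 (adjusted p up to 0.0647).

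Few lincRNA genes differed between rev and 0h. Besides Xist and Gm13067, C130071C03Rik (0.97 ± 0.30, edgeR adjusted p = 0.042) and Gm20707 (0.80 ± 0.25, adjusted p = 0.0399) were higher in rev. C130071C03Rik, which holds Mir9-2, lost its call without 0h clone 4 number 1, 0h clone 8 number 2 or any single rev library other than clone 8 number 1 (adjusted p up to 0.339), and Gm20707 without any 1 of the 7 libraries compared (adjusted p up to 0.287). At an unadjusted p under 0.05, 10 were higher and 10 lower, so a failure to pass does not show that levels returned to those of 0h. In 2h vs 0h 13 genes had an unadjusted p under 0.05. The share of all genes at that unadjusted threshold is not given, so these counts are not set against other genes.

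The clones differed in level for 18 of the 79 genes: 10 were higher in clone 8 and 8 lower (edgeR adjusted p under 0.05), where 10.4% of all genes were higher and 8.11% lower. H19, an imprinted, maternally expressed RNA that carries miR-675, differed most. It held 6.86 CPM in the clone 4 library and 2.61 and 2.67 CPM in the clone 8 libraries at 0h, 12.8 and 15.8 against 1.82 and 1.51 CPM at 4h, and was 1.94 lower on the log2 scale in clone 8 (-1.94 ± 0.20, adjusted p = 4.58e-07). No clone 8 library reached the level of any clone 4 library. Miat was also lower in clone 8 (-1.002 ± 0.15, adjusted p = 8.28e-05). Pvt1, a neighbour of Myc, was higher (0.67 ± 0.20, adjusted p = 0.0213), but not without 0h clone 4 number 1 (0.47, adjusted p = 0.117), with total count scaling (0.66, adjusted p = 0.142) or in thinned libraries (0.47, adjusted p = 0.456).

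Mir17hg, the host of the miR-17 to miR-92 cluster, was lower in clone 8 by 0.84 on the log2 scale (-0.84 ± 0.12, edgeR adjusted p = 3.25e-05), with 25.0 to 43.7 CPM in clone 4 and 14.8 to 23.2 CPM in clone 8, so no library of one clone overlapped with the other. It passed in none of the 5 comparisons of groups. The microRNAs it carries were not measured, since these libraries count the host transcript, but they are printed to show what the host encodes. Capitals mark the seed, bases 2 to 8; miR-17-5p and miR-20a-5p share one seed, miR-19a-3p and miR-19b-3p another, and the sequences are those of RefSeq on GRCm38.p6.
miR-17-5p: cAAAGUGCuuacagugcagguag
miR-20a-5p: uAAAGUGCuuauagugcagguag
miR-18a-5p: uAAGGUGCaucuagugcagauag
miR-19a-3p: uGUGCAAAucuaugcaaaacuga
miR-19b-3p: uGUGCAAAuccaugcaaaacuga
miR-92a-3p: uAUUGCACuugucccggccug
The printed forms run from miR-17-5p at chr14:115043684-115043706 to miR-92a-3p at chr14:115044476-115044496, all on the plus strand within the annotated Mir17hg gene.

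**Figure D4:**
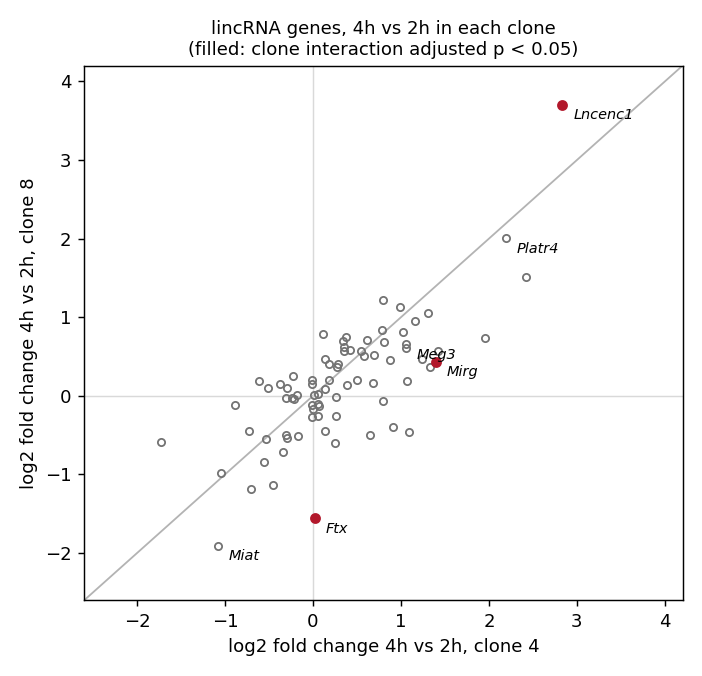
log2 fold change in 4h vs 2h in clone 4 (x axis) and clone 8 (y axis) for the 79 lincRNA genes, with the line of equal change; filled points passed the test of the difference between the clones. Most genes lie near the line, with Lncenc1 above it and Ftx and Mirg below it.

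The responses of the 2 clones were compared in a model that fitted each clone's groups separately. In 4h vs 2h, where each clone had 2 libraries a group, 59 of 79 genes had the same sign in both clones (Pearson r 0.75 over the 79 genes, a description) and 32 of the 33 called genes did. The difference between the clones passed for 3 genes in 4h vs 2h and 2 in rev vs 4h (edgeR adjusted p under 0.05), where 3.14% and 2.8% of all genes passed; with total count scaling it passed for 0 in either. Lncenc1 rose by 2.83 ± 0.14 in clone 4 and 3.70 ± 0.15 in clone 8, a difference of 0.87 ± 0.19 (adjusted p = 0.0121, or 0.0582 without 4h clone 8 number 1), and fell in rev vs 4h by 2.63 in clone 4 and 3.79 in clone 8, a difference of -1.16 ± 0.19 (adjusted p = 0.00124). Mirg rose by 1.40 ± 0.16 in clone 4 and by 0.43 ± 0.16 in clone 8, a difference of -0.97 ± 0.22 (adjusted p = 0.0171, lost without either 4h library of clone 8, adjusted p up to 0.0678). In rev vs 4h it fell by 1.22 in clone 4 and by 0.22 in clone 8, a difference of 1.00 ± 0.22 (adjusted p = 0.0152, lost without either 4h library of clone 8, rev clone 4 number 2 or rev clone 8 number 2, adjusted p up to 0.125). Ftx changed by 0.03 ± 0.25 in clone 4 and -1.56 ± 0.26 in clone 8, a difference of -1.58 ± 0.37 (adjusted p = 0.0193), which was lost without 2h clone 4 number 1, 2h clone 8 number 1 or 4h clone 8 number 1 (adjusted p up to 0.103).

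Of the 79 genes, 22 point away from the nearest protein-coding gene and 11 point towards it, at any distance. For Mirg and Rtl1, which point away from each other, the distance is 129434 bases. Another 27 lie on the same strand without overlap, 14 overlap the coding gene on the opposite strand and 5 on the same strand. The nearest coding gene was itself tested for 65 of the 79. Over these 65 pairs Pearson's r of the log2 fold changes was 0.03 in 2h vs 0h, 0.19 in 4h vs 0h, 0.17 in 4h vs 2h, 0.32 in rev vs 4h and -0.07 in rev vs 0h, as a description. Some coding genes enter more than once, so the pairs are not independent. Rtl1 is nearest to Meg3, Mirg, B830012L14Rik and Gm26945, and Zfp281 to Gm19705 and Platr22. In 4h vs 0h both genes of a pair passed in the same direction 9 times and in opposite directions 3 times. The lincRNA gene alone passed 14 times and the coding gene alone 20 times. Of all genes tested 39.4% passed in either direction, so no link within the pairs is read from these counts. Enc1, a Kelch family gene 181936 bases from Lncenc1, was higher by 1.05 in 2h vs 0h (edgeR adjusted p = 4.32e-05) and 1.54 in 4h vs 0h (adjusted p = 3.13e-08) and fell by 1.29 in rev vs 4h (adjusted p = 1.18e-07). Jade1, 62539 bases from Platr4, was higher by 0.61 at 4h than at 0h (adjusted p = 0.00106) and fell by 0.86 in rev vs 4h (adjusted p = 2.07e-05). Rtl1, the coding gene nearest to Meg3, gave 0.40 in 4h vs 0h (adjusted p = 0.0547), and Cryba4, nearest to Miat, was not tested for its low counts. Chosen after its values were seen, Myc, 47612 bases from Pvt1, was higher by 3.96 at 4h than at 0h (adjusted p = 0.000598) while Pvt1 gave 0.29 ± 0.30 (adjusted p = 0.456).

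**Figure D5:**
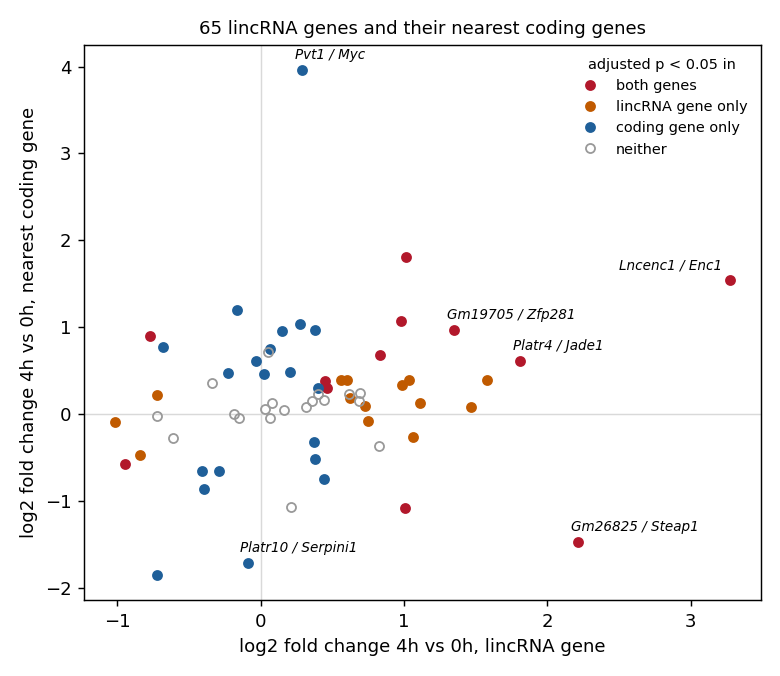
log2 fold change in 4h vs 0h of a lincRNA gene (x axis) and of its nearest protein-coding gene (y axis) for the 65 pairs in which both were tested, coloured by which of them passed an adjusted p of 0.05. Lncenc1 with Enc1 is at the upper right, and Pvt1 with Myc is at the top, near 0 on the x axis.

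Genes for the turnover and the structures of noncoding RNA were counted beside them. Of 30 tested genes for termination and turnover (exosome, its cofactors, Integrator), 9 were higher and 5 lower in 4h vs 0h, and 3 higher and 5 lower in rev vs 4h (edgeR adjusted p under 0.05). Of all genes tested, 20.5% were higher and 18.9% lower in 4h vs 0h, and 15.1% higher and 15.6% lower in rev vs 4h, so no difference from other genes is read from these counts. Of 9 paraspeckle protein genes, 4 were higher and 0 lower in 4h vs 0h and 1 higher and 3 lower in rev vs 4h. Their median log2 fold changes in 4h vs 0h were 0.11 and 0.14, against 0.03 for all genes tested.

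Among the 79 genes the log2 fold change did not follow length or level: over the 79, Spearman's rho of the change in 4h vs 0h was 0.09 with exonic length and -0.04 with mean CPM, as a description. Exonic length was 404 to 20771 bases with a median of 3301, against a median of 1272 in the 2078 other lincRNA rows with a count. CPM is not scaled for length, so the rule itself favoured longer genes. No exon position was shared with another annotated gene in 46 of the 79, and 33 shared some, 14 of them with a protein-coding gene. Among the 46 alone, 20 were called in 4h vs 0h, where 40.5% of the 79 and 39.4% of all genes tested were called.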

How the data were processed

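RNA was measured in 15 samples of EpiLCs. Per the labels' protocols, total RNA was depleted of ribosomal RNA and libraries were made with a NEBNext Ultra II kit. Per the submitters' processing notes, bcl2fastq 2.19.1 and STAR 2.5.3a were used with the build mm10. The authors deposited raw counts per gene, whole numbers with no normalization; the counting tool, its annotation and its use of strand are not given in the sources used here. Biotypes, names, positions and exon overlaps came from GENCODE M21 (GRCm38, the build mm10), which held 52489 of the 52636 identifiers.

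Counts were fitted in R 4.3.3 with edgeR 4.0.16: 13451 genes kept by filterByExpr for the groups (at least 10 counts, 15 in total), TMM scaling on the kept genes, and the robust quasi-likelihood F test (two-sided) with group and clone as terms over all 15 samples. P-values were Benjamini-Hochberg adjusted over all genes tested, and a gene was called at an adjusted p under 0.05. Whether the clones responded differently was tested with each clone's groups fitted separately. The standard error (SE) is the log2 fold change divided by the square root of F. CPM values are on the TMM-scaled libraries, with SD over libraries. A count of 3 was worth 0.161 to 1.83 CPM, and such limits cover counting error only. The scripts were tested on simulated data.

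The members and lists were chosen with earlier results of these data known. Genes are named by rule: list members, the 4 largest called rises and falls in each comparison with the same direction in both clones, the 4 largest differences between clones, up to 3 members that passed each clone interaction, the 5 with the highest mean CPM, those beside the threshold, and the nearest coding gene of the 3 members with the smallest p in 4h vs 0h and in rev vs 4h. Gm26945, Myc and the partners of overlapping genes were added after values were seen. The summed level is given with no test, because the members were chosen with results known. Clone pairs the samples and is in the model: deviations from group means had a mean r of 0.25 between libraries of 1 clone in different groups and -0.25 between clones. The chi-square between libraries of 1 clone and group was 5.49 to 199 times its degrees of freedom, so no pair was a repeat deposit. Sequences came from RefSeq tables on GRCm38.p6. Alternatives were DESeq2 1.42.0 (test and size factors), total count scaling, other filters, thinning, no clone term, the replicate block, fewer samples and each replicate left out; 2 were added after the data were seen, an earlier quasi-likelihood estimate and leaving out the shallow 4h libraries clone 4 number 1 and clone 8 number 2.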

Additional observations from a re-analysis of the deposited data

Results flagged for a closer look

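Snhg12 in 4h clone 8 number 1 held 16.8 CPM (16.8456), and the nearest of the other 3 libraries of 4h held 10.996 CPM, a gap large against the range of the group. It was the only such case in 105 groups of 4 libraries over 35 named genes, where chance alone gives about 1 in 20.

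The changes of 3 genes differed between the clones by the test of the difference itself (edgeR, clone 8 minus clone 4, log2 scale). In 4h vs 2h the difference was -0.97 (-0.9652) for Mirg, 0.87 (0.8702) for Lncenc1 and -1.58 (-1.582) for Ftx. In rev vs 4h it was 1.00 (0.9988) for Mirg and -1.16 (-1.161) for Lncenc1.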

How the results depend on the processing

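Total count scaling left 34 of 76 calls of named genes in place, ended 39 and reversed 3: in 4h vs 0h Meg3 was -0.09 (-0.08813) and Mirg -0.07 (-0.06534), and in 4h vs 2h Xist was -0.03 (-0.03389); the scaling's own shift of all genes is given above. With it the called lincRNA genes numbered 1 in 2h vs 0h, 19 in 4h vs 2h, 2 in rev vs 0h, 4 in clone 8 vs clone 4 and 0 in each clone interaction, and the summed level at 4h was 0.839 times that at 0h. Thinned libraries, with fewer genes tested, gave 2 in 2h vs 0h, 14 in 4h vs 0h, 16 in 4h vs 2h, 9 in rev vs 4h, 1 in rev vs 0h, 9 between clones and 0 in the interaction of 4h vs 2h; Epb41l4aos was 0.09 (0.08621) in 4h vs 0h there. In 2h vs 0h the count was 8 with the 20 top genes and all mitochondrial ones left out (which left 78 members), 8 with the earlier quasi-likelihood estimate, 7 at a mean of at least 1 CPM, 1 at 5 CPM and 2 at 2 CPM in each group. In rev vs 0h it was 11 without the abundant genes, 7 with no filter, 10 with DESeq2, 2 with no clone term, 2 with the replicate block, 13 with the groups compared only, 8 with the earlier estimate, 8 without the shallow 4h libraries, 12 at 1 CPM, 1 at 5 CPM, 2 at 2 CPM in each group and 1 with no shared exon. Genes with no shared exon gave 20 in 4h vs 0h and 1 in each interaction, and leaving out the shallow libraries gave 1 in each interaction. The causes were not tested, except that fewer genes or samples enter some settings. The share of all genes called in these settings, or with a replicate left out, is not given, so the counts are not set against other genes.

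Leaving out 1 replicate at a time gave 2 to 5 genes in 2h vs 0h, 23 to 33 in 4h vs 0h, 26 to 34 in 4h vs 2h, 16 to 23 in rev vs 4h, 1 to 4 in rev vs 0h, 14 to 18 between clones, 0 to 4 in the interaction of 4h vs 2h (0 without 4h clone 8 number 1) and 1 to 4 in that of rev vs 4h. A group left with 1 library of a clone is assumed to vary like the others. The differences between number 1 and number 2 of a clone had r of -0.25 to 0.33 between groups, without a common sign. The highest was that of 2h and rev in clone 4. The replicate number was not in the main model, and with it as a replicate block 65 of 71 calls of named genes held and 6 were lost. Lncenc1 and Platr4 kept their calls at 4h against 0h and 2h, and in rev against 4h, under every setting run for them. Without a clone term clone 8 vs clone 4 could not be fitted. Depth limits the low genes: 3 counts were 0.683 to 1.83 CPM at 4h.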
